A study of Mus musculus with 6 samples.

Results

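The genes described here are those of the cytosolic ribosomal proteins, the protein parts of the ribosome that works in the cytosol, in CD8+ T cells treated with sphingosine-1-phosphate (S1P) or with vehicle. They were taken by a rule on symbols: protein-coding genes named Rpl or Rps followed by a number or letter code in the GENCODE vM39 annotation of GRCm39. This group of genes was chosen with earlier results of these data known. The rule took 85 genes of the 56941 identifiers in the count table, 52 of the large subunit and 33 of the small subunit. Of these, 82 (49 large and 33 small) passed the filter on low counts and were tested among 13299 genes. The 3 others were Rpl10l, with 0 counts in every sample, Rpl3l, with 0 or 1 count, and Rpl39l, with 1 to 4 counts. A count of 0 allowed up to 0.249 CPM (counts scaled to library size) in the library with the fewest counts. Rpl10l and Rpl39l are copies known mainly from the testis, and Rpl3l is known from heart and skeletal muscle.

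RNA was read from 6 samples, 3 with S1P and 3 with vehicle, to ask how S1P alters gene expression of activated CD8+ T cells. The cells are described as naive CD8+ T cells purified from the spleens of B6 mice. The paper's general culture method allows for either purified naive T cells or whole splenocytes. In both groups the cells were cultured for 3 days on anti-CD3 and anti-CD28 with IL-2 at 100 U/ml. S1P at 5 µM, or vehicle, was added 24 h into the culture, so S1P was the only stated difference between the groups. The labels call the samples biological replicates without saying whether each came from its own mouse, and p-values measure the spread between these samples.

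Each ribosome is built from a large and a small subunit, and a cell needs about equal numbers of each ribosomal protein. Their mRNAs are short, abundant and stable, and nearly all begin with a 5′ terminal oligopyrimidine (TOP) tract, a C followed by a run of C and T. Through this tract the kinase complex mTORC1 and the RNA-binding protein Larp1 adjust how much of the mRNA is translated. When a T cell is activated it grows and makes new ribosomes before it divides, and ribosomal protein genes are among its most active. RNA counts show mRNA abundance and say nothing of translation.

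The starts of 7 of these genes are shown because their counts are followed below: the gene with the largest rise (Rpl12), 3 more that rose (Rps24, Rpl23 and Rpl35), Rps6, whose protein is the classic target of S6 kinase, and both genes that fell (Rpl7l1 and Rps27l). Each line is RefSeq sequence of GRCm38.p6, 5′ to 3′ on the gene's strand, from 90 bases before to 30 bases after the annotated start. Capitals mark a C followed by at least 5 bases that are each C or T, searched on the gene's strand within 30 bases of the start, or the motif CCGGAAG, which ETS factors such as GABP bind, searched on both strands of the whole line. On the opposite strand that motif reads CTTCCGG and can share its first bases with a tract.
Rpl12: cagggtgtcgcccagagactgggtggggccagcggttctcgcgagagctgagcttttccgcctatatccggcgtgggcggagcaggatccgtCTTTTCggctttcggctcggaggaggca
Rps24: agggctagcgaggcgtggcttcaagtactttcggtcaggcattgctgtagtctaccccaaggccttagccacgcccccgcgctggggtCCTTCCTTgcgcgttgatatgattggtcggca
Rpl23: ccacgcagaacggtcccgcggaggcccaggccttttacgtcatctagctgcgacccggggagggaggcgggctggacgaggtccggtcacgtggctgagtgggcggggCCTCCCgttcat
Rpl35: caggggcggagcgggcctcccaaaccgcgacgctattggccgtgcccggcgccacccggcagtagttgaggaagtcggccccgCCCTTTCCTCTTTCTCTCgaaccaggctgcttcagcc
Rps6: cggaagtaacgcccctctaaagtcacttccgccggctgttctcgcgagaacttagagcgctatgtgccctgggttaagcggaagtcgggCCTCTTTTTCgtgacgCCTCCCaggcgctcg
Rpl7l1: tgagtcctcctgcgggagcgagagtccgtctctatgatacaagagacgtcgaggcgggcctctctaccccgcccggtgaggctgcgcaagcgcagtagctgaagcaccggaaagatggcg
Rps27l: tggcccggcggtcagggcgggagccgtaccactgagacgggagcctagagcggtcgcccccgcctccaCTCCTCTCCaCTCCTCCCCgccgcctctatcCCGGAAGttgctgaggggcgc
In that build the windows lie at chr2:32961622-32961741 (plus strand), chr14:24490588-24490707 (plus), chr11:97782410-97782529 (minus), chr2:39005102-39005221 (minus), chr4:86857338-86857457 (minus), chr17:46782627-46782746 (minus) and chr9:66945996-66946115 (plus). The Rpl35 window held a pyrimidine tract of 18 bases across its start, Rps6 one of 10 bases and Rps24 one of 8 bases. In Rpl12 the tract was CTTTTC, 2 bases after the annotated start. The Rpl7l1 window held none within 30 bases of its start. The Rps27l window held 2 tracts of 9 bases before its start and a CCGGAAG after it.

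The same search was made over all the RefSeq promoters. Entries were found for 64 of the 85 members, 76 entries in all, against 32851 entries for all genes. On the gene's strand, 51 of the 76 member windows (67.1%) held a C with at least 5 further pyrimidines within 30 bases of the start, and 40.0% of all windows did. Tracts of at least 10 bases were in 23 of the 76 member windows (30.3%) and in 8.63% of all windows. Read on the opposite strand, such long tracts were in 1 member window (1.32%) and in 10.0% of all windows. The motif CCGGAAG, on either strand of the whole 300-base window, was in 27 member windows (35.5%) and in 8.86% of all windows. These are matches of letters in windows of annotated starts, and no binding or translation was measured.

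As a group the members took a slightly larger share of the RNA in S1P-treated cells. Together they made up 5.75%, 6.17% and 6.24% of all counts in vehicle replicates 1 to 3 and 6.46%, 6.28% and 6.86% in S1P replicates 1 to 3. The mean was 6.06% ± 0.264 (SD, n = 3) with vehicle and 6.54% ± 0.297 (SD, n = 3) with S1P, and the groups did not overlap, although S1P replicate 2 lay just above the highest vehicle sample. The difference of the means, 0.479 percentage points, was 0.316 without S1P replicate 3 and 0.606 without S1P replicate 2. The 95% Wilson intervals of these shares were at most 0.0139 percentage points to either side and cover counting error only. In this bulk RNA a larger share of one class of cells and more of the RNA per cell cannot be told apart. Library totals ran from 12048880 counts in S1P replicate 2 to 17384084 in S1P replicate 1.

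**Figure D1:**
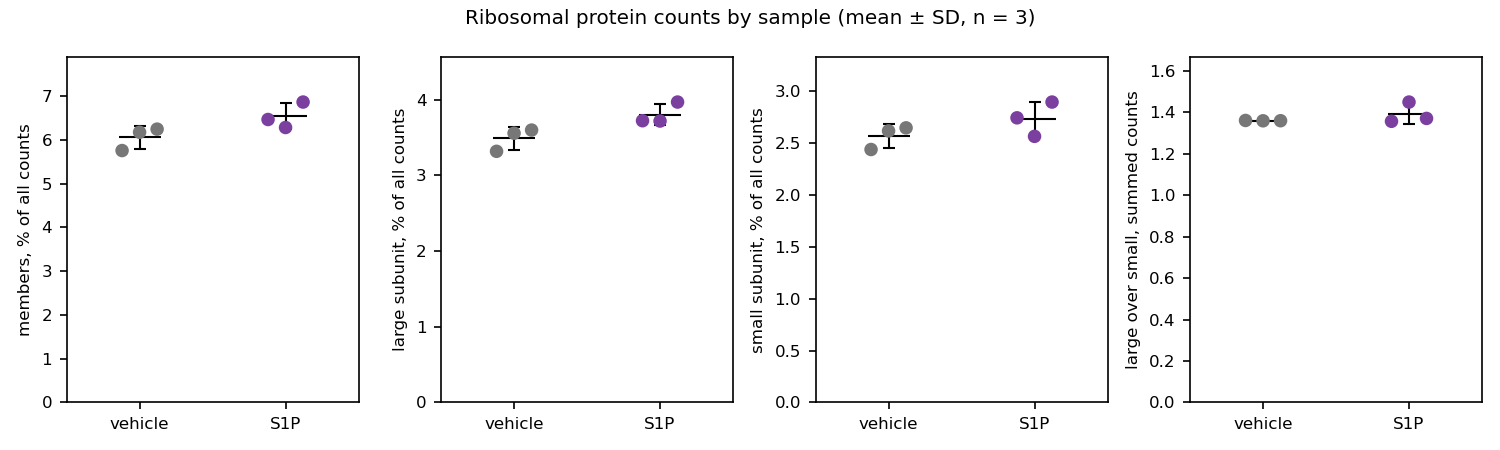
Share of all counts in ribosomal protein genes (all, large subunit, small subunit; percent) and the ratio of summed large- to small-subunit counts, for each of the 6 samples. Points are samples with replicates 1 to 3 from left to right, bars are means with SD, n = 3. The share of all members runs from 5.75% to 6.24% with vehicle and from 6.28% to 6.86% with S1P, and S1P replicate 2 has the highest ratio, 1.45.

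Beside these shares, S1P replicate 2 stood apart in other ways. Mitochondrially encoded genes took 7.80% of its counts and 4.10% to 4.93% of the counts in the other 5 samples. Its counts differed from S1P replicates 1 and 3 by a chi-square of 31.2 and 18.4 per gene, where the other pairs within a group gave 3.81 to 5.98. The 7 genes listed for the labelled cell type were present in every sample, and some of them were lower with S1P. Cd8a was at 3058 to 3694 normalized counts with vehicle and at 1944 to 2122 with S1P (log2 fold change −0.67 ± 0.08 SE, adjusted p = 0.000243), and Cd8b1 at 1499 to 2156 and 1081 to 1270 (log2 fold change −0.55 ± 0.13 SE, adjusted p = 0.00767). Cd3d and Cd3g also had every S1P sample below every vehicle sample and passed the adjusted p under the fold threshold (log2 fold changes of −0.28 with adjusted p = 0.0129 and −0.21 with adjusted p = 0.0444). The other 3 genes of the list of 7, Cd3e, Trac and Gzmb, did not pass. The sum of the 7 was 46306 to 57360 with vehicle and 44504 to 47023 with S1P, and most of it was Gzmb, at 29628 to 38942. Genes of B cells and CD4 T cells were found as well, all 6 of the B cell list, and of these Ms4a1 was also lower, at 2727 to 3383 with vehicle and 2225 to 2527 with S1P (log2 fold change −0.39 ± 0.09 SE, adjusted p = 0.00889). Summed over the 6, B cell genes gave 19732 to 24189 normalized counts with vehicle and 19322 to 21098 with S1P. The sums of Cd4 and Foxp3 were 2858 to 3409 with vehicle and 2973 to 3910 with S1P. Cd4 alone had a mean of 2998 with vehicle and 3220 with S1P, where Cd8a had 3271 and 2056. The summed genes of myeloid, NK and erythroid cells reached at most 99.6, 41.7 and 15.0 in any sample, and no part of any of these cell types in the results on ribosomal protein genes was tested.

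Member by member, most differences were small. Calls needed both an adjusted p no higher than 0.05 and a log2 fold change of 0.3 or more in either direction. By this rule 8 members rose, 2 fell and the other 72 tested members did not pass, so 12.2% of members were called, where 23.1% of all tested genes were. In the direction of S1P the 8 members stood against 12.7% of all genes called higher, and the 2 against 10.4% called lower. By adjusted p alone, 13 members were higher and 2 lower, against 14.7% and 13.8% of all tested genes. For 30 of the 82 members the samples of the groups were fully separate, against 45.6% of all tested genes. In 26 members (31.7%) every S1P sample was above every vehicle sample, against 23.0% of all tested genes, and in 4 (4.88%) every S1P sample was below, against 22.6%. By the call rule this fit thus put the share of members below that of all genes, together and in each direction. By adjusted p alone the 13 higher members (15.9%) were close to the share of all genes, and by separation upward their share was above it. Some other fits turned the upward calls. Without S1P replicate 1, 21 of 82 members were higher, against 1736 of 13409 genes, and 22 were called, against 24.1%. The length offset gave 13 members higher, against 1615 of 13299 genes. With a replicate block and GC offset 11 were higher, against 1658 of 13299. With no filter 8 of 84 were higher, against 1727 of 34414, and 10 were called, against 9.69%. None of these shares was tested. Fold changes of the members lay close together, with a median log2 fold change of 0.09 and quartiles at −0.07 and 0.23, where all tested genes had a median of 0.01 and quartiles at −0.20 and 0.26. The fitted change was positive for 54 members and negative for 28. The median of the members was 0.05 without vehicle replicate 1 and 0.04 without S1P replicate 3.

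**Figure D2:**
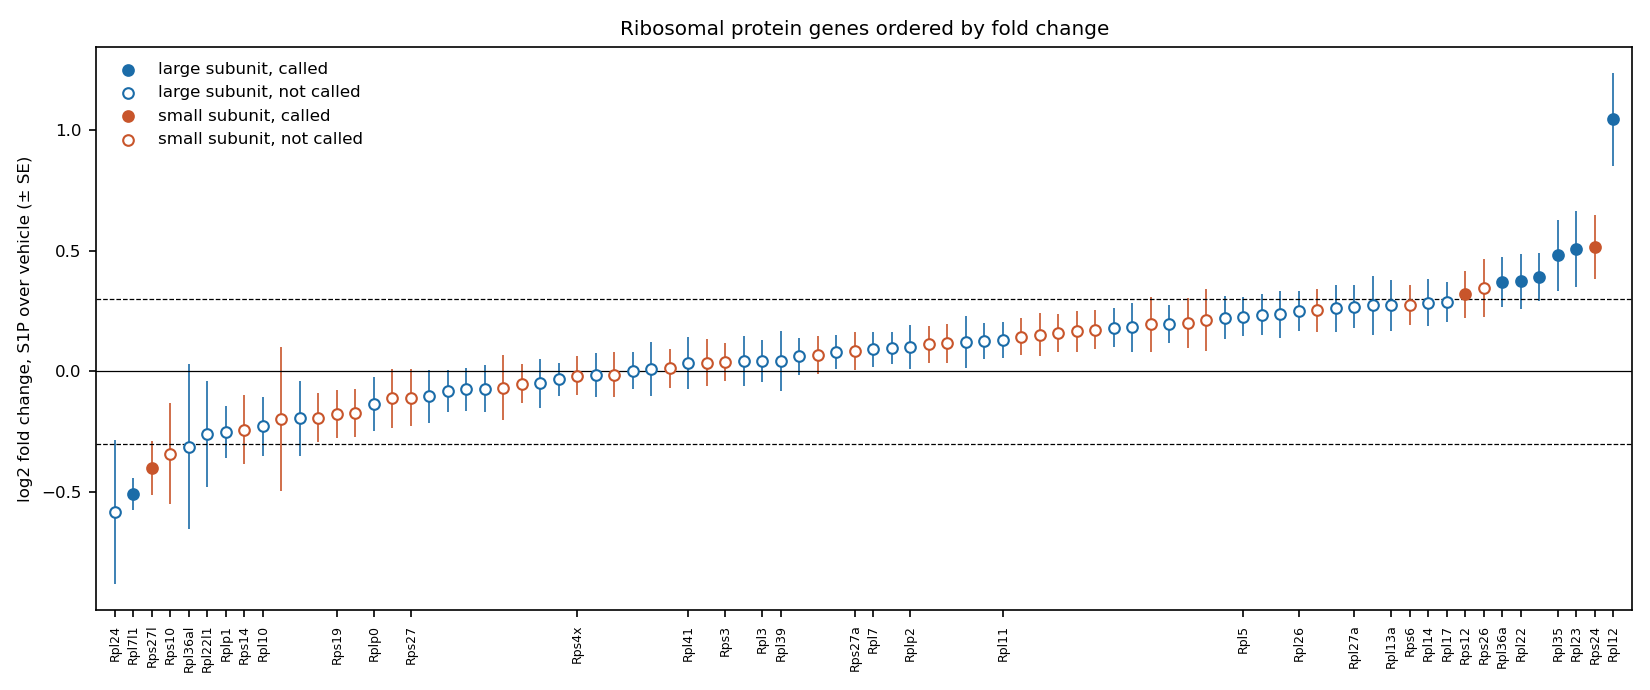
Log2 fold change of S1P over vehicle (vertical axis, with SE) for the 82 tested ribosomal protein genes in order of size, blue for the large and orange for the small subunit. Names on the horizontal axis are of genes described in the text. Filled points are the 8 genes called higher and 2 called lower, dashed lines mark 0.3 in size, and Rpl12, at 1.04, lies apart from all others.

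Both subunits held members that rose and members that fell. Their called shares are given beside the 12.7% of all tested genes called higher and the 10.4% called lower. Of 49 tested large-subunit members 6 (12.2%) rose, Rpl12, Rpl23, Rpl35, Rpl22 and Rpl36a among them. In this subunit 1 (2.04%) fell, Rpl7l1, and the median log2 fold change was 0.10. Among the 33 small-subunit members 2 (6.06%) rose (Rps24 and Rps12) and 1 (3.03%) fell (Rps27l), with a median of 0.07. Without vehicle replicate 1 these medians were 0.06 and 0.04, and without S1P replicate 3 they were 0.05 and 0.02. Without S1P replicate 2 the small-subunit median was 0.11. Large-subunit genes made up 3.32%, 3.56% and 3.60% of counts with vehicle and 3.72%, 3.72% and 3.97% with S1P, and these groups did not overlap. Small-subunit genes made up 2.44%, 2.62% and 2.65% with vehicle and 2.74%, 2.56% and 2.89% with S1P, where S1P replicate 2 fell among the vehicle samples. The ratio of summed large- to small-subunit counts was 1.36 ± 0.000862 (SD, n = 3) with vehicle. It was 1.36, 1.45 and 1.37 in S1P replicates 1 to 3, so that the higher mean with S1P, 1.39 ± 0.0501 (SD, n = 3), lay with 1 sample and the groups overlapped. Of the difference between the means, 0.0325, only 0.00381 remained without S1P replicate 2, and it was 0.0503 without S1P replicate 1. No test of a difference between the subunits was made.

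Rpl12 changed more than any other member. Its protein sits at the base of the stalk of the large subunit, next to the site where translation factors hydrolyse GTP. Rpl12 (ENSMUSG00000038900, GRCm39 chr2:32851496-32855357, plus strand) had normalized counts of 6566, 8287 and 8184 in vehicle replicates 1 to 3 and 10067, 18423 and 19030.3 in S1P replicates 1 to 3. All 3 S1P samples were above all vehicle samples, S1P replicates 2 and 3 by far and replicate 1 by less. The mean was 7679 ± 965 (SD, n = 3) with vehicle and 15840.0 ± 5009 (SD, n = 3) with S1P, 2.06 times as high (log2 fold change 1.04 ± 0.19 SE, adjusted p = 0.00238). It was called in all 13 other fits of the whole table and in all 6 fits that left out 1 sample, with a log2 fold change of 0.88 to 1.29 in the latter. Of the exon sequence cut into stretches of 31 bases, 64.8% was also found in other genes, searched on both strands. Of these 27 genes 20 were annotated as pseudogenes, and 28.8% of the stretches were found in protein-coding genes. Reads of shared stretches could be counted on either gene. On the opposite strand, 17.2% of its exon sequence overlapped other genes, of which Lrsam1 had 47.6 to 69.7 normalized counts.

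The other 3 genes of the stalk were not called. Rplp0 anchors the stalk, and Rplp1 and Rplp2 form the dimers that catch elongation factors. Normalized counts of Rplp0 were 25459.6, 25647 and 24887 with vehicle and 26746, 18580.5 and 23879 with S1P, with S1P replicate 2 far below the rest (log2 fold change −0.13 ± 0.11 SE, adjusted p = 0.404). Rplp1 had 6636, 7511 and 7706 with vehicle and 6298, 5068 and 6981 with S1P, again lowest in S1P replicate 2 and with overlapping groups (log2 fold change −0.25 ± 0.11 SE, adjusted p = 0.102). Rplp2 had 4326, 5015 and 5448 with vehicle and 5387, 4852 and 5618 with S1P, also overlapping (log2 fold change 0.10 ± 0.09 SE, adjusted p = 0.436). Without S1P replicate 3, Rplp1 was called lower.

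**Figure D3:**
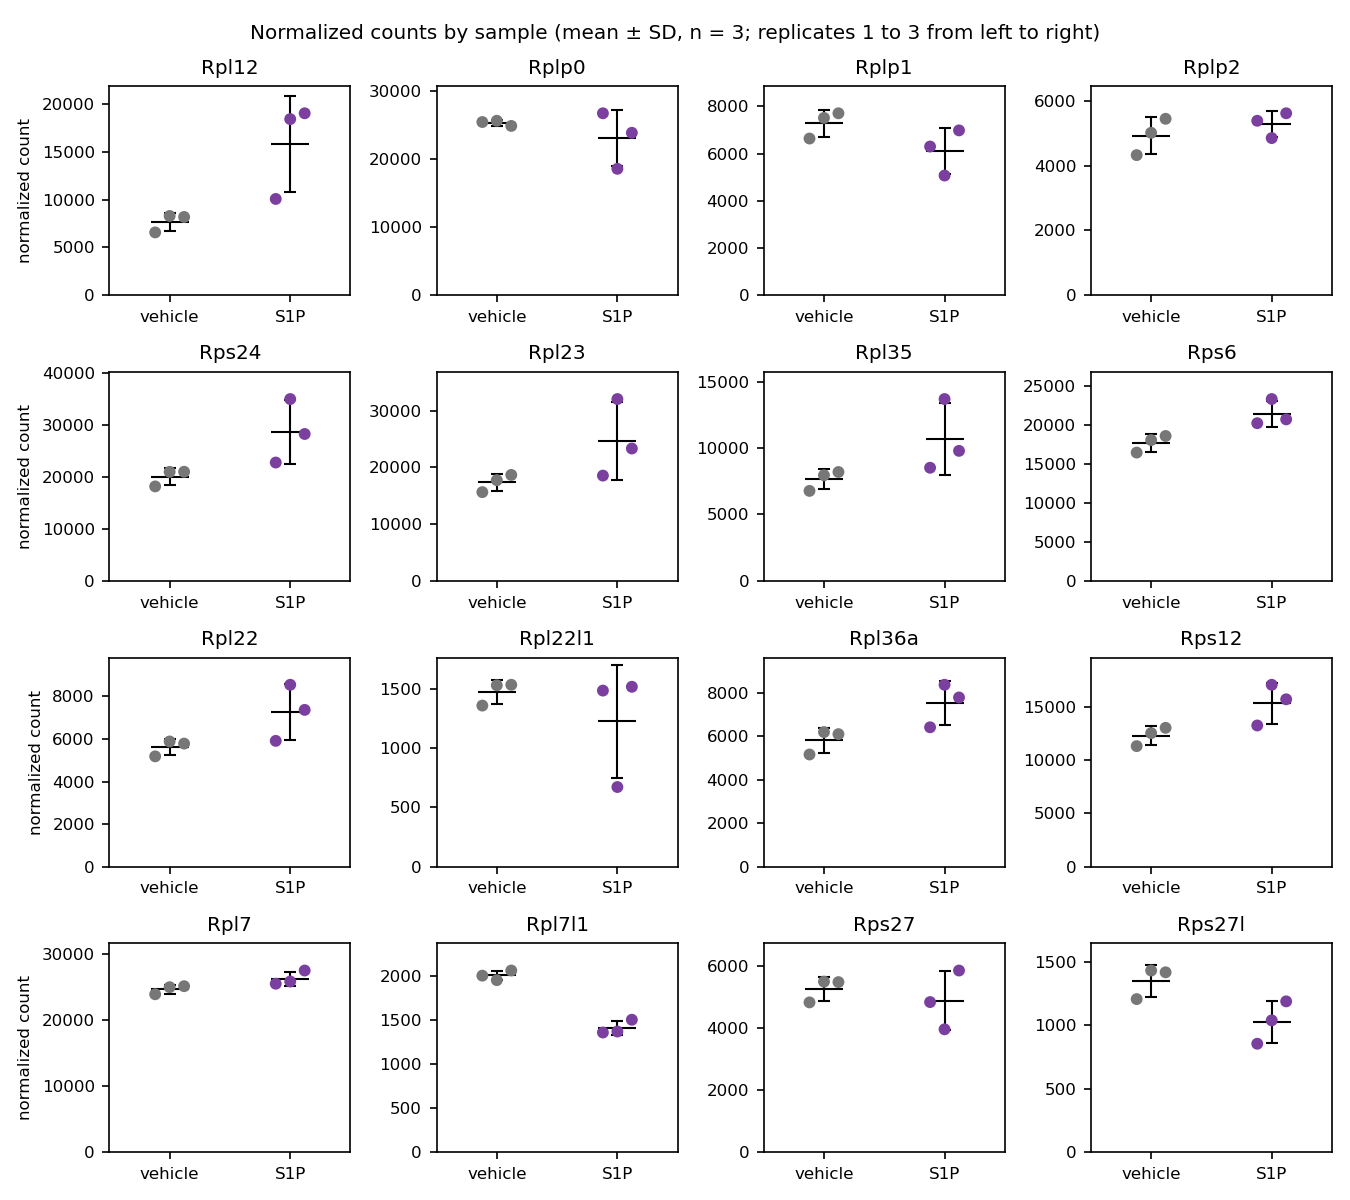
Normalized counts (vertical axis, from 0) in the 3 vehicle (grey) and 3 S1P (purple) samples of the stalk genes, Rps6, called members and paralogs of some of them. Bars are means with SD, n = 3. The groups overlap for Rplp0, Rplp1, Rplp2, Rpl23, Rpl22l1 and Rps27 and are separate in the other panels. S1P replicate 2 is the highest point of Rps24, Rpl23 and Rpl35, and it is the lowest point of Rpl22l1 at 673.

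The remaining members that rose were abundant genes with changes of 1.25 to 1.43 times. Rps24, a small-subunit protein needed to process the precursor of 18S rRNA and mutated in some families with Diamond-Blackfan anaemia, is on chromosome 14 (chr14:24537193-24547028, plus strand). Its normalized counts were 18209, 21014 and 21035 in vehicle replicates 1 to 3 and 22811, 35046 and 28309 in S1P replicates 1 to 3. Each S1P sample was above each vehicle sample (log2 fold change 0.52 ± 0.13 SE, adjusted p = 0.0133). Rpl23, a large-subunit protein at the face between the subunits that can also bind the p53 regulator Mdm2, had 15637, 17738 and 18663 with vehicle and 18544, 32026 and 23313 with S1P. Here S1P replicate 1 fell just below the highest vehicle sample, and replicate 2 was far above the rest (log2 fold change 0.51 ± 0.16 SE, adjusted p = 0.0325). By DESeq2 Rpl23 was not called, at a log2 fold change of 0.50 and an adjusted p of 0.116, while the other 12 fits of all 6 samples called it. Rpl35, near the exit of the peptide tunnel, had 6776, 7954 and 8196 with vehicle and 8518, 13689.6 and 9789 with S1P, and its groups did not overlap (log2 fold change 0.48 ± 0.15 SE, adjusted p = 0.0287). Nearly all of the Rpl35 exon sequence, 98.9% of the 31-base stretches, is shared with other genes. Without S1P replicate 2, Rpl23 and Rpl35 were no longer called, with log2 fold changes of 0.27 and 0.26, while Rps24 remained called at 0.35. Without vehicle replicate 1 the call of Rps24 was lost as well, with an adjusted p of 0.0687. Among the fits without 1 sample, Rpl23 and Rpl35 were called only in that without S1P replicate 1, and their adjusted p ran from 0.00165 to 0.128 and from 0.00323 to 0.123.

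Rpl22, Rpl36a and Rps12 rose by less. Rpl22 is an RNA-binding protein of the large subunit that mice need to develop αβ T cells, and it is not essential for protein synthesis. Its normalized counts were 5183, 5882 and 5782 with vehicle and 5911, 8546 and 7367 with S1P, where S1P replicate 1 lay only just above the highest vehicle sample (log2 fold change 0.37 ± 0.11 SE, adjusted p = 0.0306). Rpl36a, on the X chromosome, had 5166, 6197 and 6104 with vehicle and 6419, 8377 and 7793 with S1P (log2 fold change 0.37 ± 0.10 SE, adjusted p = 0.02). Rps12, a protein of the small-subunit head and the host of 3 annotated snoRNA genes, had 11292, 12508 and 13005 with vehicle and 13225, 17037 and 15677 with S1P (log2 fold change 0.32 ± 0.10 SE, adjusted p = 0.0297). Scaled by total count only, or with no filter, Rps12 fell below the fold threshold. Replicate 2 was the highest S1P sample for all 3 genes, and without it none of the 3 was called, with log2 fold changes of 0.24, 0.29 and 0.24. Over the 6 fits without 1 sample, Rpl22 and Rps12 were called only without S1P replicate 1, and Rpl36a also without vehicle replicate 2. Their adjusted p ran from 0.00132 to 0.129 for Rpl22, 0.00315 to 0.138 for Rps12 and 0.00211 to 0.104 for Rpl36a. Rpl36a and Rps12 share 88.4% and 93.5% of their 31-base stretches with other genes, and Rpl22 shares 32.9%.

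A further 5 members passed the adjusted p with a fold change under the threshold. These were Rpl17 (log2 fold change 0.29 with adjusted p = 0.0216), Rpl14 (0.28 with adjusted p = 0.0481), Rps6 (0.28 with adjusted p = 0.0288), Rpl27a (0.27 with adjusted p = 0.041) and Rpl26 (0.25 with adjusted p = 0.0409). Rps26 just missed it, with a log2 fold change of 0.35, an adjusted p of 0.0502 and overlapping groups. It was called higher in 9 of the 13 other fits of all 6 samples, those with DESeq2 and with the replicate block among them. Rps6, which S6 kinases phosphorylate when mTORC1 is active, had normalized counts of 16421, 18022 and 18544 with vehicle and 20181, 23272 and 20670.0 with S1P. Its groups did not overlap, and the S1P mean was 1.21 times the vehicle mean.

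Members that fell, Rpl7l1 and Rps27l, are paralogs of ribosomal proteins. With vehicle they were at 2704 and 5305 normalized counts per kilobase of coding sequence, where Rpl7 and Rps27 were at 30302 and 20708. Rpl7l1, a paralog of Rpl7 found in precursors of the large subunit, is on chromosome 17 (chr17:47084824-47093606, minus strand). Its normalized counts were 2001, 1950.3 and 2059 in vehicle replicates 1 to 3 and 1358, 1369 and 1502 in S1P replicates 1 to 3. Both groups were tight and well apart, the mean falling to 0.703 times vehicle (log2 fold change −0.51 ± 0.07 SE, adjusted p = 0.000346), and it was called in every one of the 13 other fits and the 6 fits without 1 sample. Rpl7 itself had 23874, 24941 and 25092 with vehicle and 25462, 25799.8 and 27455 with S1P, with every S1P sample slightly above vehicle but no call (log2 fold change 0.09 ± 0.07 SE, adjusted p = 0.382). Rps27l, a paralog of Rps27 that p53 induces, had 1207, 1432 and 1419 in vehicle replicates 1 to 3 and 856, 1040.0 and 1189.6 in S1P replicates 1 to 3. The groups did not overlap, with S1P replicate 3 close under the lowest vehicle sample (log2 fold change −0.40 ± 0.11 SE, adjusted p = 0.0204). Its call was lost in 3 of the 6 fits without 1 sample, those without vehicle replicate 2, vehicle replicate 3 or S1P replicate 1, and over the 6 its log2 fold change ran from −0.53 to −0.28 and its adjusted p from 0.0111 to 0.0838. Rps27 had 4839, 5509 and 5493 with vehicle and 4849, 3971 and 5867 with S1P and overlapping groups (log2 fold change −0.11 ± 0.12 SE, adjusted p = 0.526).

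Other paralog pairs gave no call in the second gene. Rpl22l1, which can take the place of Rpl22 in the ribosome, had 1360.4, 1532 and 1536 with vehicle and 1487, 673 and 1519 with S1P. Only S1P replicate 2 lay outside the rest, and the other 5 samples ran from 1360.4 to 1536 (log2 fold change −0.26 ± 0.22 SE, adjusted p = 0.407), and without that sample the log2 fold change was 0.03. In the same sample Rpl22 was at its highest. Rpl10, a large-subunit protein that joins late in assembly, had 18275, 18941 and 18531 with vehicle and 18016, 12212 and 17364 with S1P, below vehicle in every S1P sample and far below only in replicate 2 (log2 fold change −0.23 ± 0.12 SE, adjusted p = 0.188). Its copy Rpl10l was at 0. Rpl3 (log2 fold change 0.04 ± 0.09 SE, adjusted p = 0.742), Rpl39 (log2 fold change 0.04 ± 0.12 SE, adjusted p = 0.818) and Rps4x (log2 fold change −0.02 ± 0.08 SE, adjusted p = 0.89) overlapped between groups, and their copies Rpl3l, Rpl39l and Rps4l had few counts, with Rps4l at 15.0 to 26.3 normalized counts. Rpl36al, the copy of Rpl36a, had 8.29 to 16.2 normalized counts and overlapping groups (log2 fold change −0.31 ± 0.34 SE, adjusted p = 0.528).

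Rpl5 and Rpl11 form, with 5S rRNA, a particle that joins the large subunit and that can bind Mdm2 when assembly is disturbed. Rpl5 had 23195, 25206 and 25423 with vehicle and 26764, 30331 and 29256 with S1P, each S1P sample above each vehicle sample, with an adjusted p just over the threshold (log2 fold change 0.23 ± 0.08 SE, adjusted p = 0.0543). Rpl11 had 8472, 9484 and 9449.8 with vehicle and 9559, 10306 and 10130.2 with S1P, likewise without overlap and not called (log2 fold change 0.13 ± 0.07 SE, adjusted p = 0.209). Of members known for other duties, Rps3, which also acts in DNA repair and with NF-κB, had 16749, 17444 and 16896 with vehicle and 18224, 15780.0 and 18477 with S1P and overlapping groups (log2 fold change 0.04 ± 0.08 SE, adjusted p = 0.751). Rps27a is made as a fusion with ubiquitin, and it had 11828, 12694 and 13219 with vehicle and 13035, 12612 and 14349 with S1P (log2 fold change 0.08 ± 0.08 SE, adjusted p = 0.453). Rps19, the gene most often mutated in Diamond-Blackfan anaemia, had 5454, 5656 and 5799 with vehicle and 5580.1, 4112 and 5272 with S1P, lowest in S1P replicate 2 (log2 fold change −0.18 ± 0.10 SE, adjusted p = 0.215). Rpl13a, which interferon-γ can release from the ribosome of myeloid cells to repress other mRNAs, had 887, 853 and 889.8 with vehicle and 957, 1277 and 956 with S1P, highest in S1P replicate 2 and without overlap (log2 fold change 0.27 ± 0.11 SE, adjusted p = 0.0715).

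Over the members, the S1P samples lay further from their own mean than the vehicle samples did. Each sample was set against the mean of its own group, and the SD over the 82 members of this log2 ratio was 0.108, 0.0620 and 0.0928 in vehicle replicates 1 to 3 and 0.179, 0.210 and 0.113 in S1P replicates 1 to 3. Members are not replicates, and this difference in spread was not tested. S1P replicate 2 held both the highest value of 23 members and the lowest value of 27. Its members at the top included Rpl23, Rps24 and Rpl35, and those at the bottom included Rpl10, Rplp0, Rps14 and Rpl22l1. S1P replicate 3 held the highest value of 36 members and the lowest of 1. Vehicle replicate 1 held the lowest value of 47 members. Calls moved with these samples. Without vehicle replicate 1, Rpl12 alone was called higher, against 1263 of all 13453 genes tested in that fit. Without S1P replicate 1, 21 of 82 members were called higher, against 1736 of 13409 genes. Among these members were Rps6, Rpl13a, Rpl17 and Rps26. Without S1P replicate 2, 3 members were called higher, Rpl12 and Rps24 among them, against 1588 of 13657 genes. In that fit the change was positive for 67 of 82 members. Leaving out vehicle replicate 2 or 3, or S1P replicate 3, gave 4, 2 and 3 members called higher. Over all genes, 1322 of 13755, 1158 of 13498 and 1438 of 13751 were called higher there. Rpl12 was among the members called higher in each of these 6 fits.

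**Figure D4:**
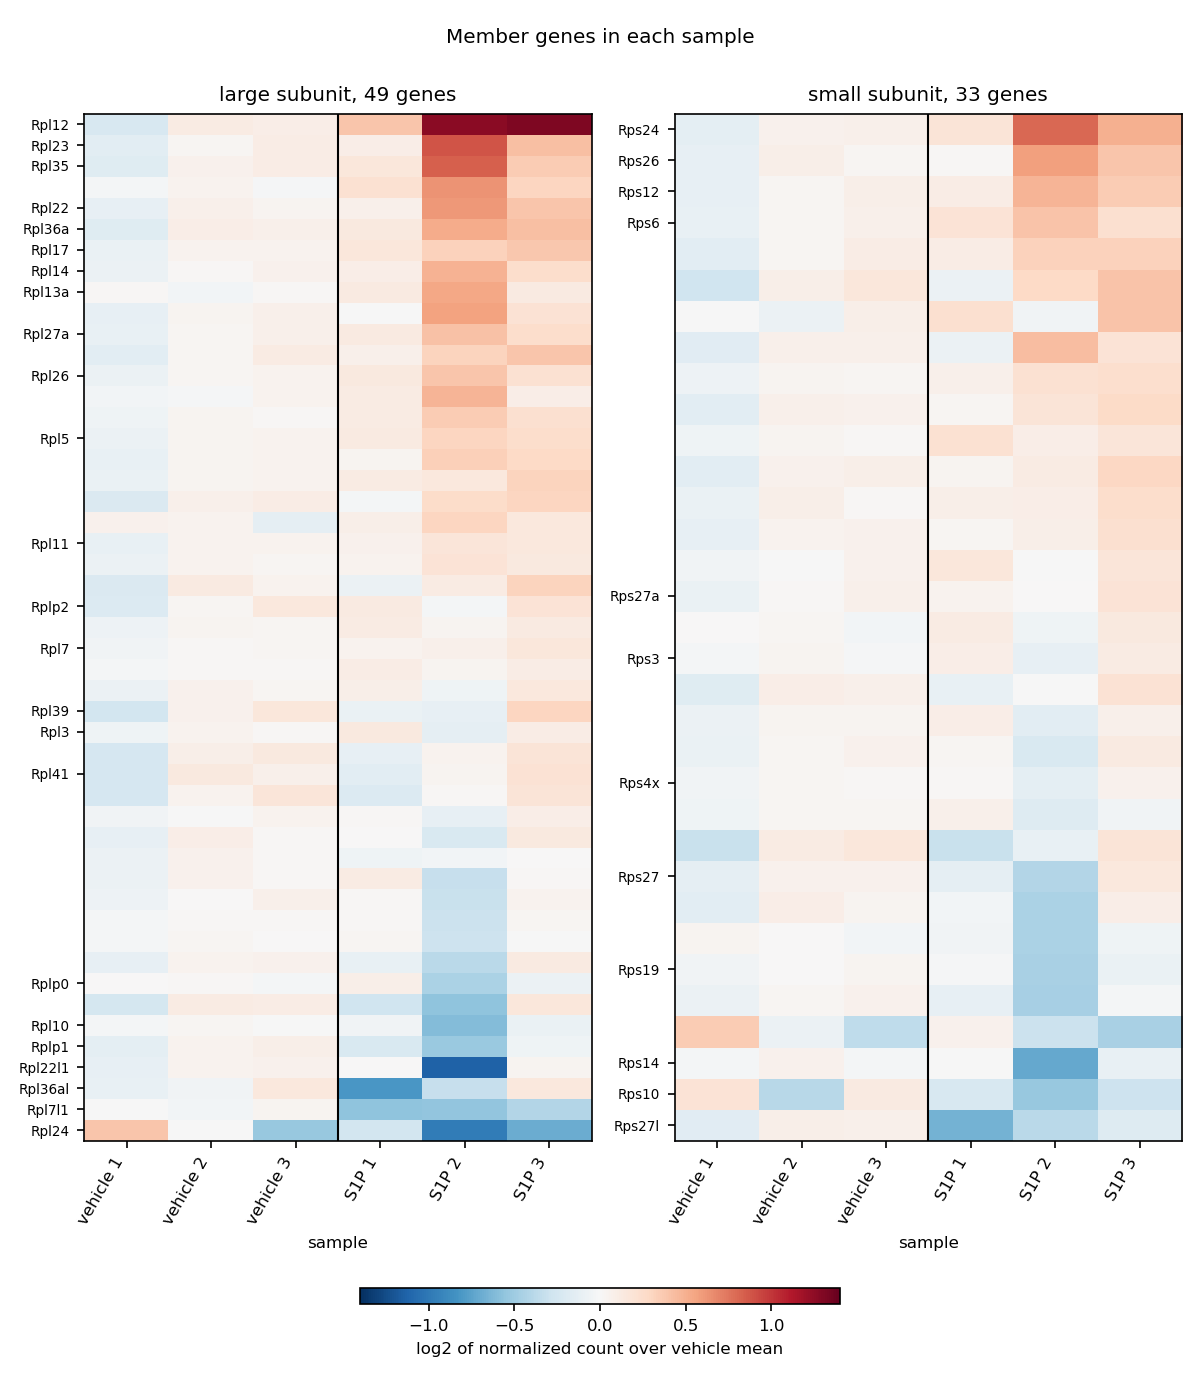
Log2 of the normalized count over the mean of the 3 vehicle samples (colour, red higher and blue lower) for 49 large- and 33 small-subunit genes (rows, ordered by fitted fold change) in each of the 6 samples (columns). Rows of genes described in the text carry a name. S1P replicate 2 holds 23 members at their highest and 27 at their lowest, the deepest blue among them, the deepest red is Rpl12 in S1P replicate 3, and Rpl7l1 is blue in all 3 S1P samples.

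Levels within the ribosome were compared per kilobase of coding sequence, over the 81 tested members with a coding length in the CCDS set. The median was 21844 normalized counts per kilobase, and the quartiles were 14022 and 27629, a 1.97-fold range. Rpl41, Rps24 and Rpl23 were highest by the mean over all 6 samples. With vehicle alone Rpsa, at 45661 ± 1724 per kilobase (SD, n = 3), was above Rpl23, and with S1P it was at 50943 ± 2134. Rpl41, whose coding sequence has only 78 bases, so that its untranslated ends weigh heavily, had 102433 ± 13477 per kilobase (SD, n = 3) with vehicle and 104949 ± 12526 with S1P. Rps24 had 51109 ± 4136 and 73084 ± 15593, and Rpl23 41007 ± 3666 and 58221 ± 16161. The order of Rps24 and Rpl23 was the same in both groups, but with S1P they differed by less than their SD. At the other end, Rps10, Rpl24 and Rpl36al had 117, 75.3 and 45.4 normalized counts per kilobase with vehicle, far under the rest. Rpl24 (18.1 to 46.7 normalized counts) and Rps10 (40.1 to 66.3) encode standard proteins of the ribosome. In the annotation, 41.1% of the Rpl24 exons and 14.9% of the Rps10 exons lie within other genes on the same strand, Gm28037 and Gm49804. Those genes had 0 counts in every sample, and so did Gm45713, which covers part of Rpl13a. The counting program can leave out reads that overlap more than 1 gene. Its setting is not given in the sources used here, and part of the Rpl36al exons lies within Gm49383 on the same strand, which had at most 1 count. Low counts of Rpl24, Rps10, Rpl13a and Rpl36al therefore cannot be read as low expression. None of Rpl24 (log2 fold change −0.58 ± 0.30 SE, adjusted p = 0.167), Rps10 (log2 fold change −0.34 ± 0.21 SE, adjusted p = 0.248) and Rpl36al passed the test.

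Sharing of sequence with other genes was common among members. The share of 31-base stretches found in other genes, on either strand, ran from 2.15% to 98.9%. Its median was 53.2%, and it was over 50% in 45 of 85 members. Of the 10 tested members with under 20% shared stretches, 0 were called by edgeR in either direction, where 23.1% of all tested genes were, and their median log2 fold change was 0.04. DESeq2 and limma-voom also called 0 of these 10, and 0 had an unadjusted p under 0.05. With the counts of named pseudogenes added to their parent genes, 9 members were called higher and 2 lower, against 1685 and 1381 of 13241 genes. The 30 members with an annotated snoRNA gene within them on the same strand had a median of 0.16 on the log2 scale, with 4 called higher and 0 lower (0 lower by DESeq2 and by limma-voom as well, and 0 at an unadjusted p under 0.05). The 52 tested members without one had a median of 0.05, with 4 called higher and 2 lower. Over all tested genes 12.7% were called higher and 10.4% lower. This split was made after the values were seen and was not tested.

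The symbol rule leaves out ribosomal proteins with other names. Fau, which encodes Rps30 fused to a ubiquitin-like protein, rose, with normalized counts of 3908, 4586 and 4384 with vehicle and 5024, 5882 and 5422 with S1P and no overlap (log2 fold change 0.34 ± 0.08 SE, adjusted p = 0.01), and its call was lost without vehicle replicate 1 or S1P replicate 2, where the adjusted p ran up to 0.0638 and the log2 fold change down to 0.28. Rack1, a scaffold protein on the head of the small subunit, had 17551, 18290.3 and 17854 with vehicle and 18019, 12471 and 16982 with S1P, lowest in S1P replicate 2 as for Rplp0 and Rpl10 (log2 fold change −0.18 ± 0.12 SE, adjusted p = 0.279).

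Other genes whose mRNAs begin with a TOP tract gave few calls. Of 20 such genes, mostly translation factors, 2 rose, 0 fell by edgeR, DESeq2 or limma-voom and the median log2 fold change was 0.12. Of all tested genes 12.7% were called higher and 10.4% lower. Eif3l, a subunit of initiation factor eIF3 and the 1 gene lower at an unadjusted p under 0.05, also passed the adjusted p, with a change under the fold threshold (log2 fold change −0.25 ± 0.06 SE, adjusted p = 0.0112). Pabpc1, the poly(A)-binding protein, had 54127, 52312 and 53188 with vehicle and 63674, 91968 and 69782 with S1P (log2 fold change 0.50 ± 0.12 SE, adjusted p = 0.0108), again with S1P replicate 2 highest. Vim, an intermediate filament protein, had 2632, 2622 and 2503 with vehicle and 6501, 5826 and 6125 with S1P, with tight groups far apart (log2 fold change 1.25 ± 0.07 SE, adjusted p = 4.37e-06). Elongation factors Eef1a1 and Eef2 had log2 fold changes of 0.18 (adjusted p = 0.168) and 0.19 (adjusted p = 0.107) and did not pass.

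Genes that act on TOP mRNAs and on mTORC1 changed in both directions. Of 30 listed genes 29 were tested, 6 rose and 3 fell, and the median log2 fold change was 0.00. These are 20.7% and 10.3% of the list, where 12.7% and 10.4% of all tested genes were called higher and lower, and the difference was not tested. Those that rose were Ddit4, Rragd, Eif4ebp1, Sesn2, Castor2 and Pdcd4. Ddit4, a stress-induced inhibitor of mTORC1, had 400.2, 634 and 346 with vehicle and 1296, 1221 and 1399 with S1P (log2 fold change 1.51 ± 0.17 SE, adjusted p = 0.000122). Sesn2, a leucine sensor, and Castor2, both of which bind and restrain the mTORC1 activator GATOR2, had log2 fold changes of 0.63 (adjusted p = 0.00137) and 0.45 (adjusted p = 0.0277). Eif4ebp1, which represses cap-dependent initiation unless mTORC1 phosphorylates it, had 368, 492 and 366 with vehicle and 756, 671 and 769.5 with S1P (log2 fold change 0.85 ± 0.11 SE, adjusted p = 0.000384). Rragd, a GTPase that brings mTORC1 to the lysosome, was higher by 0.96 (adjusted p = 0.000835), and Pdcd4, an inhibitor of the helicase eIF4A, by 0.34 (adjusted p = 0.00864). Those that fell were Eif4e, the cap-binding protein, with −0.44 (adjusted p = 0.000689), Rps6kb2, an S6 kinase, with −0.39 (adjusted p = 0.0243), and Eif4ebp2, with −0.31 (adjusted p = 0.0145). Larp1, which binds TOP tracts, had 12310.0, 12199 and 11904 with vehicle and 10024, 10559 and 9857 with S1P and passed the adjusted p below the fold threshold (log2 fold change −0.26 ± 0.07 SE, adjusted p = 0.0146). Of the same list, Larp4, which binds poly(A) tails, Tsc2, part of a complex that inhibits mTORC1, and Sesn3, a relative of Sesn2, likewise passed it alone, with log2 fold changes of −0.29 (adjusted p = 0.00908), −0.29 (adjusted p = 0.0187) and 0.20 (adjusted p = 0.0421). Mtor had a log2 fold change of −0.22 (adjusted p = 0.0656). Some of these calls did not hold in every fit without 1 sample. Castor2 lost its call without vehicle replicate 2 or 3 or S1P replicate 1, Rps6kb2 without vehicle replicate 1 or 3 or S1P replicate 1, and Pdcd4 and Eif4ebp2 without vehicle replicate 1 or S1P replicate 2. Over the 6 fits without 1 sample the log2 fold change ran from 0.36 to 0.58 for Castor2, −0.46 to −0.34 for Rps6kb2, 0.26 to 0.38 for Pdcd4 and −0.36 to −0.22 for Eif4ebp2, and the adjusted p reached 0.11, 0.101, 0.0531 and 0.0681. With the GC offset, alone or with the block, Rps6kb2 (adjusted p of 0.0532 and 0.0622), Pdcd4 (log2 fold change of 0.28 in both) and Eif4ebp2 (−0.28 in both) were not called, nor was Eif4ebp2 with upper-quartile factors (−0.28). Activity of mTORC1 was not measured.

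Among 12 transcription factors listed for sites in ribosomal protein promoters, 1 rose, Zbtb10 (log2 fold change 1.33 ± 0.11 SE, adjusted p = 2.23e-05), and 0 fell by edgeR, DESeq2 or limma-voom or at an unadjusted p under 0.05. Of all tested genes 12.7% were called higher and 10.4% lower. Gabpa, the DNA-binding part of GABP, had a log2 fold change of 0.15 (adjusted p = 0.198), and Myc, which drives ribosome production in activated T cells, of 0.14 (adjusted p = 0.12).

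Mitochondrial ribosomal proteins, encoded in the nucleus for a separate ribosome, served as a comparison. Of 78 tested genes 1 rose (Mrpl32, 0.33) and 22 fell (28.2%, against 10.4% of all tested genes called lower and 12.7% higher), and the median log2 fold change was −0.23, where that of cytosolic members was 0.09. The fitted change was negative for 68 of the 78 and for 28 of the 82 cytosolic members. Mrpl32 was called in only 1 of the 6 fits without 1 sample, that without S1P replicate 1, and its log2 fold change ran from 0.19 to 0.44. It also lost its call in 4 of the 13 other fits, those with limma-voom, without a filter, and with the GC offset alone or with the block. Mrpl12 had 1235, 1267 and 1334 with vehicle and 855, 805 and 969 with S1P (log2 fold change −0.55 ± 0.08 SE, adjusted p = 0.000627), and Mrpl36 and Mrpl27 fell by 0.60 and 0.60 on the log2 scale. These counts and medians were not tested against each other.

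**Figure D5:**
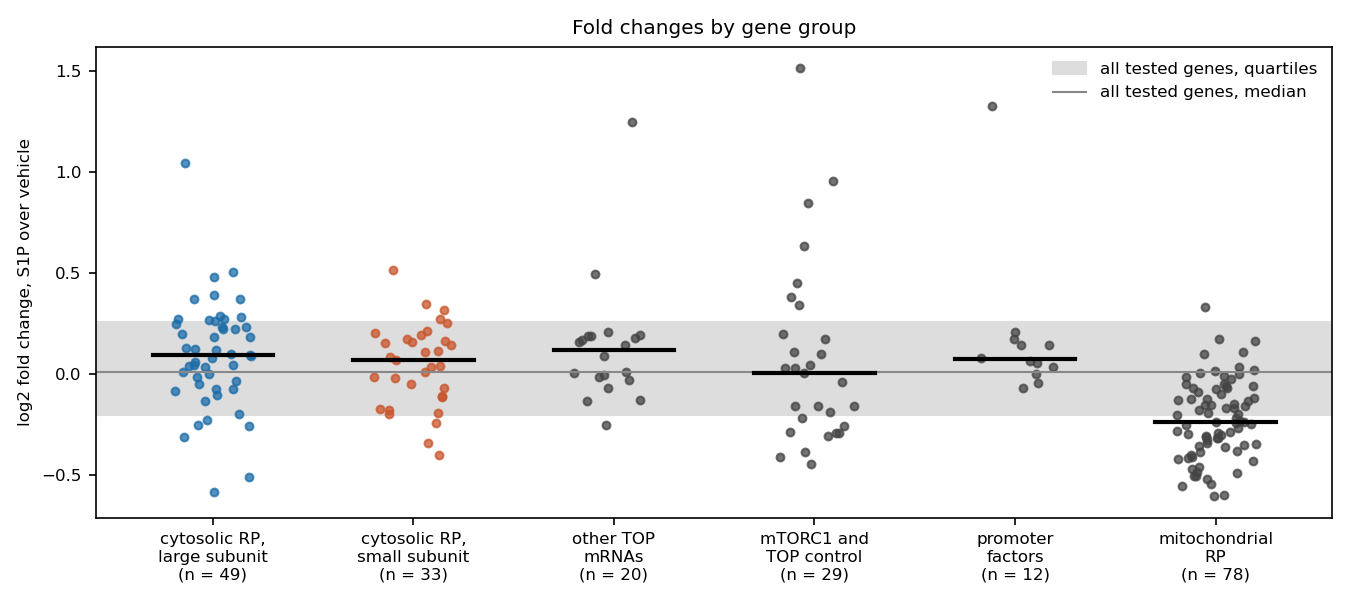
Log2 fold change of S1P over vehicle (vertical axis) for each tested gene (point) of cytosolic ribosomal proteins (RP) by subunit, other TOP mRNAs, genes of mTORC1 and TOP control, promoter factors and mitochondrial ribosomal proteins, with black bars at the group medians and grey for the quartiles and median of all tested genes. Medians are 0.10 and 0.07 for the cytosolic subunits and −0.23 for the mitochondrial proteins.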

How the data were processed

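RNA of 6 samples was analysed, 3 of CD8+ T cells with S1P and 3 with vehicle, grouped by the sample labels. The authors made strand-specific poly(A) libraries, trimmed reads with Trim Galore, aligned them with STAR to GRCm39 and counted them per gene with featureCounts, per the paper and the submitters' processing notes. The deposited values are whole-number counts without normalization, for 56941 Ensembl identifiers, of which 56323 are in GENCODE vM39. All 6 columns were used. How the authors treated strand and reads that fit several places is not given in the sources used here.

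Counts were scaled with TMM factors, filtered with filterByExpr and compared by the quasi-likelihood test of edgeR, treatment being the only term, with Benjamini-Hochberg adjustment over 13299 genes (edgeR 4.0.16, limma 3.58.1, R 4.3.3). Normalized counts are counts over TMM-scaled library size, brought to the mean library. The fit was tested on simulated data: of 200 genes made to differ by 0.5 (log2) among 13079, edgeR recovered 146 with 4 false calls. The simulation gave every gene the same relative spread between samples and set no sample apart. Only genes above a minimum mean count were made to differ. Its figures therefore need not hold for these data, where S1P replicate 2 stood apart. Total counts ranged from 12048880 to 17384084. Alternatives were DESeq2 1.42.0, limma-voom, other scaling factors, filters, offsets and thresholds, a replicate block and the fit without each sample. The study tested with DESeq2.

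The members and lists were chosen with earlier results of these data known. Named members are the 6 largest rises and 6 largest falls at a mean log2 CPM of at least 1, all called members, paralog pairs, the stalk, the 5S particle, members with added roles, and the 3 highest and 3 lowest per coding length. Others were named after their values were seen, and some genes that the rule takes are not reported here.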

Additional observations from a re-analysis of the deposited data

How the results depend on the processing

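Rpl12 and Rpl7l1 were called in every fit. Against 8 members called higher and 2 lower (6 and 1 of the large, 2 and 1 of the small subunit), the length offset gave 13 higher, 10 of the large subunit. Of all 13299 genes 1615 were higher with that offset, and 1687 in the main fit. By adjusted p alone 13 members were higher, 10 of the large subunit, against 14.7% of all genes. At a log2 fold change of at least 0.5, 3 were higher (2 large, 1 small) and 1 lower (0 small), and among members with under 20% shared stretches 0 were higher and 0 lower. Without 1 sample in turn, 1 to 21 members were higher and 1 to 3 lower, 1 to 14 and 1 to 2 of the large and 0 to 7 and 0 to 1 of the small subunit. Over all genes, 1158 to 1736 were higher and 961 to 1492 lower in those fits. In the other fits of all 6 samples, DESeq2 among them, the counts of members stayed within 1.5 times. Medians stayed positive in every fit. They ran from 0.04 to 0.12 over all members. The share of counts and the subunit ratio kept their direction, but without S1P replicate 2 the difference in ratio shrank from 0.0325 to 0.00381, and without S1P replicate 3 that in share from 0.479 to 0.316 percentage points and the small-subunit median from 0.07 to 0.02.

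The sample labels share replicate numbers, but same-numbered samples did not deviate together (correlations of 0.12, −0.01 and 0.05), so they were not taken as pairs. With the replicate block, 9 members were called higher and 2 lower, and with the block and the GC offset 11 and 2. Of all 13299 genes, 1697 were called higher and 1423 lower with the block, and 1658 and 1438 with both. Rpl24, Rps10, Rpl36al and Rps4l had few counts, and their standard errors were 0.30, 0.21, 0.34 and 0.30. These errors hold counting error and the spread between samples together.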
